A study of Chlorella sorokiniana and Chromochloris zofingiensis with 12 samples.

Results

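The comparison set 3 libraries from stress culture of the green alga Chlorella zofingiensis against 3 from stress culture of Chlorella sorokiniana, 6 of the 12 small RNA libraries of the study. The members were chosen by the species and condition given in the labels. C. zofingiensis was strain ATCC30412 and C. sorokiniana strain NIES-2168, both grown in Bold's Basal Medium at 27 °C with shaking at 30 rpm. Stress began in mid log phase, when the light was raised from 10 to 100 µmol photons and glucose was added to 2%, so both changes act together in all 6 libraries. The other 6 libraries came from the same strains at 10 µmol photons without the added glucose, and enter here only as the normal-culture values set beside a species difference. Nothing in the labels ties a library to a separate culture, so the p-values measure the spread between libraries, which may be technical. A difference between these groups is 1 between 2 strains, and strain and species cannot be told apart.

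Both algae are single-celled and can grow on light, on sugar or on both. C. zofingiensis is known for storing lipid and the red pigment astaxanthin under strong light and glucose, and C. sorokiniana for fast growth. Small RNA libraries of such cells hold microRNAs, which guide silencing of matching transcripts, and also pieces of the abundant structural RNAs: tRNA, which carries amino acids, snoRNA, which guides chemical changes on other RNAs, and rRNA of the ribosome. The libraries were available in 2 views. In the first, each library was represented by its 100 commonest tags, a tag being a distinct read sequence with its count. In the second, reads were counted at RNA entries of the land plant Arabidopsis thaliana.

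The 100 listed tags held 130737 to 191106 reads per C. sorokiniana library and 81672 to 500007 per C. zofingiensis library. A tag outside a library's list was taken as 0 there, although its count may have reached the smallest listed count, which lay between 0.160% and 0.252% of listed reads. The counts at Arabidopsis entries summed to 20686 to 26102 per C. sorokiniana library. In C. zofingiensis they summed to 60856 in replicate 1, 280404 in replicate 2 and 24978 in replicate 3. Replicate 2 of C. zofingiensis therefore stood apart, with 3.43 annotated counts per listed read against 0.110 to 0.303 in the other libraries, and counts of called entries are given with and without it. Neither view gives the sequencing depth.

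The species had few tags in common. Of 207 tags listed in at least 1 stress library, 124 were listed in C. sorokiniana and 116 in C. zofingiensis, and 33 in both, which is 26.6% of the first list and 28.4% of the second. These common tags nevertheless held 56.5% to 60.5% of the reads listed for C. sorokiniana, against 54.7% to 63.9% for C. zofingiensis. In C. sorokiniana 82 tags were listed in all 3 libraries, in C. zofingiensis 86, and 22 were common to all 6. All 207 tags ended in A.

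Many tags overlapped, so tags sharing 12 bases, with the last base removed, were joined into families, numbered here by their mean share of listed reads. The tags fell into 54 families, of which 7 held tags of both species, 18 only tags of C. sorokiniana and 29 only tags of C. zofingiensis. No file names the RNA that a tag comes from, and the families are described by size, length and position alone. The common families held 65.95%, 62.02% and 63.7% of listed reads in the C. sorokiniana libraries, against 74.2%, 69.2% and 68.4% in those of C. zofingiensis. The groups did not overlap, and the exact two-sided permutation test gave p = 0.1, the smallest it can give for 3 libraries against 3 (adjusted p = 0.171 over 12 tag measures).

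Family 1 was the most abundant in both species and took a larger part of the C. zofingiensis lists. It held 24 tags, 16 of them listed in C. sorokiniana, 20 in C. zofingiensis and 12 in both. Its share was 28.3%, 29.7% and 29.98% in C. sorokiniana against 54.01%, 44.6% and 42.9% in C. zofingiensis. Every C. zofingiensis library lay above every C. sorokiniana library, and replicate 1 of C. zofingiensis was the highest. Of the 7 common families, 4 passed edgeR's quasi-likelihood test with Benjamini-Hochberg adjustment (57.1%). Of these family 1 alone was higher in C. zofingiensis (log2 difference 0.69, SE 0.12, edgeR adjusted p = 0.00233). With TMM factors, which rescale libraries to the typical family, its adjusted p was 0.0994 at a log2 difference of 0.63, and 3 families passed, all lower.

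Families 2, 3 and 7 took smaller parts in C. zofingiensis. Family 2, with 20 tags, held 16.8%, 12.9% and 12.7% of the C. sorokiniana lists against 7.66%, 10.3% and 9.88% of those of C. zofingiensis (log2 difference -0.61, SE 0.16, edgeR adjusted p = 0.0123). Family 3, with 23 tags, held 14.6%, 14.1% and 15.3% against 7.23%, 8.63% and 9.89% (log2 difference -0.77, SE 0.13, edgeR adjusted p = 0.00233). In both families the groups did not overlap. Family 7, with 3 tags all listed in both species, held 2.94% to 3.25% against 1.89% to 2.38% (log2 difference -0.53, SE 0.14, edgeR adjusted p = 0.0123). Its adjusted p was 0.0610 without replicate 3 of C. sorokiniana. Family 11, with 4 tags listed in both species, held 1.52% to 1.97% against 1.55% to 2.01%, ranges that overlap (edgeR adjusted p = 0.909).

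**Figure D1:**
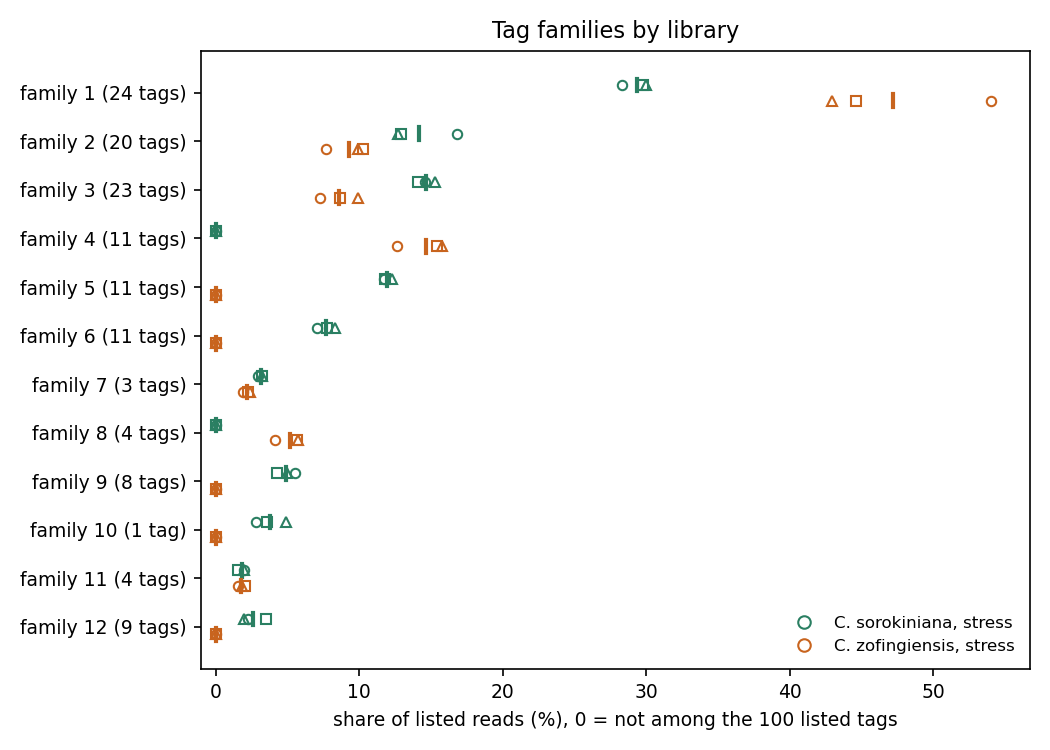
Share of listed reads (%) of the 12 most abundant tag families in the 6 stress libraries. Circles, squares and triangles are replicates 1, 2 and 3, bars are group means, and 0 means that no tag of the family was among a library's 100 listed tags; family 1 lies at 28.3% to 29.98% in C. sorokiniana, against 42.9% to 54.01% in C. zofingiensis.

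Several abundant families were listed in 1 species alone. Family 5, with 11 tags, held 11.7%, 11.8% and 12.3% of the C. sorokiniana lists, and family 6, with 11 tags led by one of 25 bases, held 7.02%, 7.74% and 8.28%. Family 10, a single tag of 18 bases, held 2.81%, 3.54% and 4.88% there. None of these was among the 100 listed tags of any C. zofingiensis stress library. On the other side, family 4, with 11 tags, held 12.6%, 15.4% and 15.8% of the C. zofingiensis lists, and family 8, with 4 tags, held 4.13%, 5.64% and 5.73%. Neither was listed in C. sorokiniana under stress. Against the mean of the smallest listed shares of the other species, the tag of family 10 was at least 16.4-fold higher in C. sorokiniana, and the leading 22-base tag of family 8 at least 22.02-fold higher in C. zofingiensis.

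Within a family the tags were staggered, and the species differed in where the tags began. In family 1 the leading tag has 20 bases, and the other tags began up to 6 bases before it or up to 5 bases after it. Tags that began with the leading tag held 34.0% to 38.03% of the family's reads for C. sorokiniana, against 37.01% to 42.5% for C. zofingiensis, ranges that overlap. Tags that began 1 base earlier held 9.72% to 10.1% of the family against 4.66% to 5.36%. Tags that began 2 bases earlier went the other way, with 5.30% to 6.75% against 8.55% to 9.84%. The 1-base and 2-base starts therefore stood in opposite order in the species, with no overlap between libraries at either. Each of these exact permutation tests gave p = 0.1, the smallest possible here (adjusted p = 0.140 over 21 starts of families 1, 2 and 3).

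The starts of family 2 hardly mixed between the species. All of its listed reads in the 3 C. sorokiniana libraries began at the first base of the leading 18-base tag. In C. zofingiensis 23.8% to 24.2% began there, 49.8% to 52.7% began 1 base earlier, and the rest began 2, 3 or 5 bases earlier. A start that is unlisted in C. sorokiniana may still have had reads below the smallest listed count. In family 3, 86.7% to 88.04% of reads in C. sorokiniana began at the first base of the leading tag, against 72.4% to 77.3% in C. zofingiensis. Tags beginning 1 base later held 14.96% to 18.7% of the family in C. zofingiensis and at most 1.13% in C. sorokiniana.

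Shares were also compared tag by tag. Of the 33 tags common to both lists, 14 passed edgeR's quasi-likelihood test with Benjamini-Hochberg adjustment (42.4%), 5 with a higher share in C. zofingiensis and 9 with a lower share. DESeq2 called 18, 9 in each direction. The median log2 difference over the 33 tags was 0.22. The 6 shares of 25 tags did not overlap between the species (75.8%). All 5 tags that were higher in C. zofingiensis belonged to family 1, and the 9 lower ones to families 1, 2, 3 and 7. Tags are numbered by their mean share, and overlapping tags of a family are not independent.

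Tag 1, the leading 20-base tag of family 1, was the commonest tag in both species. It held 10.4%, 9.88% and 9.17% of the C. sorokiniana lists against 20.6%, 15.6% and 13.2% of those of C. zofingiensis. The groups did not overlap (log2 difference 0.75, SE 0.18, edgeR adjusted p = 0.0202). Its adjusted p was 0.0677 without replicate 1 of C. sorokiniana, 0.0590 without replicate 2 and 0.0625 without replicate 3. Tag 6, which begins 2 bases before tag 1 and has 22 bases, held 1.91%, 1.57% and 1.76% against 4.77%, 3.54% and 3.88% (log2 difference 1.22, SE 0.14, edgeR adjusted p = 0.00171), and passed the test without any single library. Tag 8, which begins between them and has 21 bases, went the other way by a small amount, with 2.86%, 3.00% and 2.71% against 2.52%, 2.39% and 2.24% (log2 difference -0.26, SE 0.07, edgeR adjusted p = 0.0346). The call ended when any single library was left out, with adjusted p from 0.0586 to 0.146, and with TMM factors (0.129).

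Shorter tags of family 1 end with tag 1 but begin later. Tag 2, with 19 bases, held 6.18% to 6.45% against 8.75% to 12.03% (log2 difference 0.67, edgeR adjusted p = 0.0116), and its adjusted p was 0.0545 without replicate 1 of C. sorokiniana. Tag 13, with 18 bases, held 0.819% to 1.08% against 1.40% to 1.82% (log2 difference 0.74, edgeR adjusted p = 0.0116). Tags 3 and 9, with 17 and 16 bases, did not pass the test, at log2 differences of 0.22 and 0.37 (edgeR adjusted p = 0.146 for both). Tag 28 has the length and start of tag 1 but is not identical to it. It held 0.337%, 0.232% and 0.644% against 1.03%, 1.22% and 1.24% (log2 difference 1.52, SE 0.41, edgeR adjusted p = 0.0303), with adjusted p of 0.0768 without replicate 1 of C. sorokiniana, 0.0618 without replicate 2 and 0.0701 without replicate 3 of C. zofingiensis.

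Family 2 held the largest differences among the called common tags. Tag 5, its leading 18-base tag, held 5.88%, 4.94% and 4.40% of the C. sorokiniana lists against 0.744%, 0.872% and 0.865% of those of C. zofingiensis (log2 difference -2.62, SE 0.14, edgeR adjusted p = 1.16e-04). Tag 7, longer by 1 base at its end, held 5.89%, 4.23% and 3.86% against 0.628%, 0.760% and 0.843% (log2 difference -2.65, SE 0.21, edgeR adjusted p = 3.35e-04). The whole family differed by -0.61, less than these tags, and of its 16 tags listed in C. zofingiensis 5 were also listed in C. sorokiniana. In family 3 the leading 19-base tag 4 held 5.24%, 3.79% and 4.91% against 2.00%, 2.60% and 2.76% (log2 difference -0.92, SE 0.18, edgeR adjusted p = 0.0116). Its 16-base form, tag 10, held 3.14% to 3.65% against 1.23% to 1.44% (log2 difference -1.34, SE 0.09, edgeR adjusted p = 2.63e-04).

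**Figure D2:**
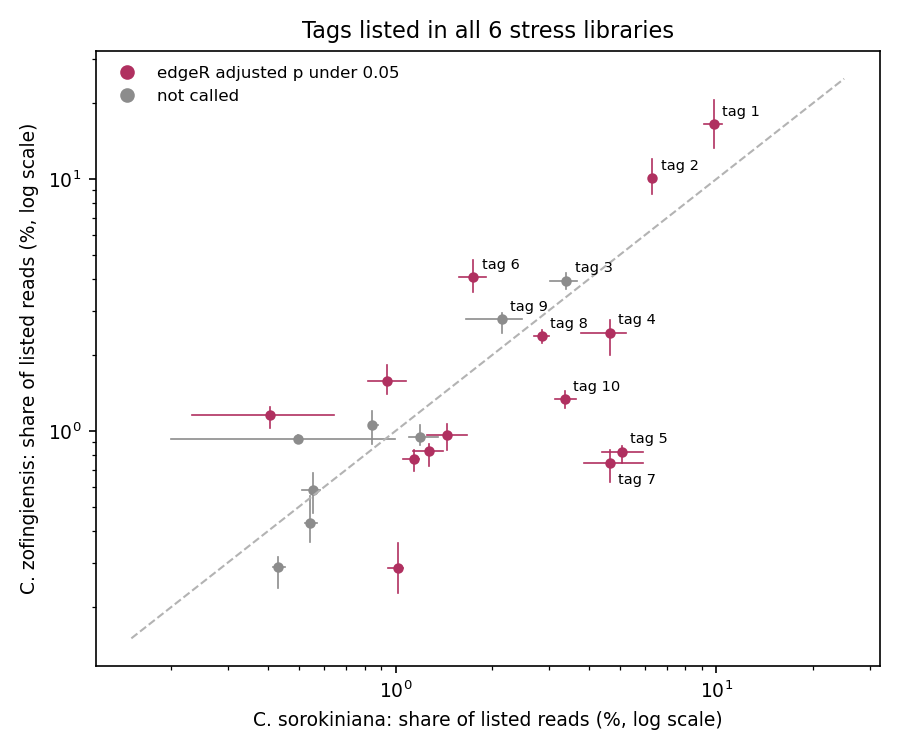
Mean share of listed reads (%, log scales) in C. sorokiniana (x) and C. zofingiensis (y) for the 22 tags listed in all 6 stress libraries. Lines span the lowest to the highest library, the dashed line marks equal shares, and coloured points passed edgeR's test at an adjusted p under 0.05; tags 1, 2 and 6 lie above the line and tags 4, 5, 7 and 10 below it.

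Tag lengths ran from 16 to 26 bases, and the species parted most at 18, 20 and 22 bases. Tags of 18 bases held 18.3% ± 0.627 (SD, n = 3) of listed reads for C. sorokiniana, against 8.96% ± 0.290 for C. zofingiensis. Tags of 20 bases held 14.1% ± 0.632 against 24.0% ± 3.16, and tags of 22 bases 4.28% ± 0.259 against 10.1% ± 0.555. At 17, 19 and 21 bases the libraries overlapped, and at 16 bases and from 23 to 26 bases all C. zofingiensis libraries lay lower, by most at 25 bases (2.06% ± 0.558 against 3.97% ± 0.337 in C. sorokiniana). Grouped, tags of 16 to 18 bases held 39.04% to 42.5% against 29.8% to 31.5%, and tags of 19 to 21 bases 39.3% to 44.1% against 47.4% to 54.4%. Tags of 22 to 26 bases held 16.9% to 18.5% against 15.3% to 21.1%, which overlap (exact permutation p = 0.600). The shorter classes did not overlap (exact permutation p = 0.1 for both, adjusted p = 0.171), but their directions reversed when each listed tag counted once whatever its reads, to 3.67 and -1.33 percentage points (C. zofingiensis less C. sorokiniana). The mean length, weighted by reads, was 19.4 ± 0.0377 against 19.5 ± 0.124 bases, with overlapping libraries (exact permutation p = 0.300).

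**Figure D3:**
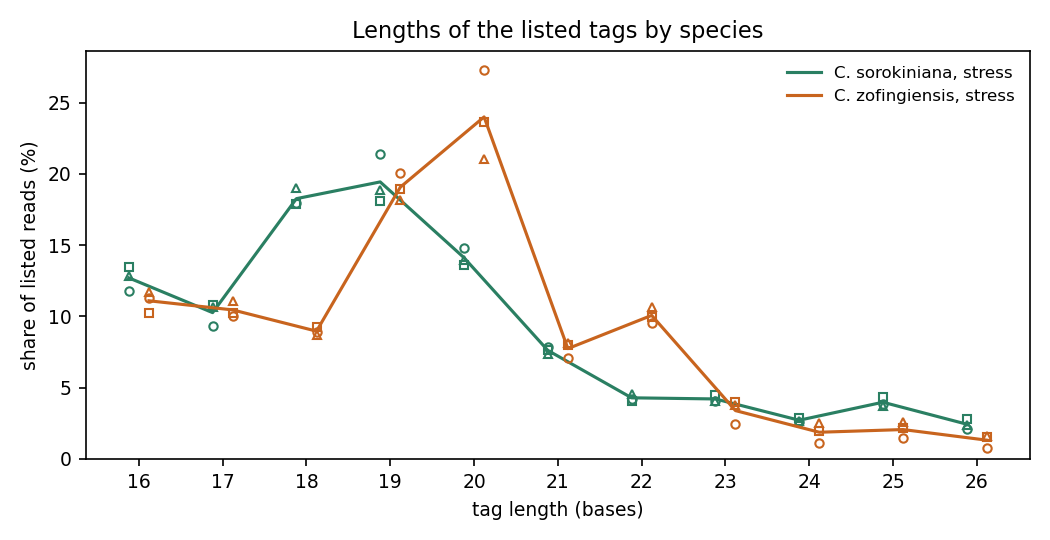
Share of listed reads (%) at each tag length (bases) in the 6 stress libraries. Symbols are replicates 1 (circle), 2 (square) and 3 (triangle) and lines join group means; the species differ most at 18 bases (18.3% in C. sorokiniana against 8.96%), 20 bases (14.1% against 24.0%) and 22 bases (4.28% against 10.1%).

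The base composition of the lists also differed. Listed reads were 49.5% to 49.96% G or C for C. sorokiniana, against 54.8% to 55.6% for C. zofingiensis. Reads beginning with A made up 27.5% to 29.2% against 14.9% to 17.1%. Reads beginning with C held 17.8% to 19.4% against 23.6% to 26.8%, and reads beginning with G 13.4% to 15.6% against 21.1% to 22.1%. For GC content, A, C and G the groups did not overlap, with exact permutation p = 0.1 each and adjusted p = 0.171. T, the commonest first base, held 36.7% to 41.2% against 34.9% to 39.4%, ranges that overlap. In the normal cultures the means stood in the same order for GC content, at 52.02% ± 0.805 in C. sorokiniana against 57.3% ± 0.596 in C. zofingiensis (SD, n = 3), and for first base A, at 28.9% ± 2.92 against 13.3% ± 0.281.

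The second view counted reads at 850 Arabidopsis entries over the 6 libraries. Of these, 574 were listed in C. sorokiniana and 713 in C. zofingiensis, and 437 in both, which is 76.1% and 61.3% of each list. The tRNA entries overlapped most, with 328 in both of 379 and 468, and snoRNA entries followed, with 69 in both of 107 and 128. The miRNA entries had 33 in both of 69 and 92, and the rRNA entries 7 in both of 19 and 25. The commonest sequence counted at an entry was the same in both species for 51 of the 437 common entries (11.7%), comparing the libraries' commonest sequences. This held for 14 of 328 tRNA entries (4.27%), 24 of 69 snoRNA entries (34.8%) and 13 of 33 miRNA entries (39.4%). Libraries of 1 species also differed: the commonest sequence was the same in all 3 libraries for 37.6% of the entries listed in all 3 C. sorokiniana libraries and 25.4% of those in all 3 of C. zofingiensis. For snoRNA entries these shares were 46.4% and 33.8%, and reads other than the commonest were not compared.

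These sequences were short and mapped to many places. The commonest sequence of an entry had a median length of 15 or 16 bases in every library, and 66.4% to 86.8% of entries had one shorter than 18 bases. The median number of mapping loci, as the sheets give it, was 22 to 28 per library. Only 115 to 190 distinct commonest sequences stood behind the 417 to 626 entries of a library. An entry named after an Arabidopsis RNA is therefore a match of a short read, and does not show that the alga has that RNA.

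tRNA-matched counts made up most of the annotated counts, at 85.5%, 88.1% and 88.4% for C. sorokiniana against 88.4%, 92.4% and 89.8% for C. zofingiensis (exact permutation p = 0.200). miRNA-matched counts were 7.46%, 5.79% and 6.85% against 1.46%, 0.172% and 1.96%. Precursor and mature entries of 1 miRNA can count the same reads. Precursor entries alone held 4.60%, 3.63% and 4.21% against 1.11%, 0.125% and 1.39%. Entries of miR169, precursor and mature, held 3.50%, 2.66% and 3.47% of annotated counts in C. sorokiniana and at most 0.00986% in C. zofingiensis. A large part of the class in C. sorokiniana was therefore 1 family. rRNA-matched counts were 1.13%, 1.11% and 0.870% against 0.357%, 0.0353% and 0.332%. miRNA and rRNA shares were thus lower in every C. zofingiensis library than in any C. sorokiniana library. snoRNA-matched counts went the other way, at 5.96%, 4.96% and 3.88% against 9.82%, 7.34% and 7.93%. For these 3 classes each exact permutation test gave p = 0.1, the smallest possible (adjusted p = 0.133 over 4 classes). Replicate 2 of C. zofingiensis had the lowest miRNA and rRNA shares. Without it, the C. zofingiensis means were 1.71% for miRNA and 0.344% for rRNA, against 6.70% and 1.04% for C. sorokiniana.

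The higher snoRNA share rested in part on 1 entry. The snoR71 entry on chromosome 5 (11982171 to 11982277) held 24.3%, 87.0% and 2.17% of the snoRNA counts of the C. zofingiensis libraries, and at most 0.480% in C. sorokiniana. Its commonest sequence of 13 bases was also counted at tRNA entries. Without that entry the snoRNA share was 7.62%, 1.02% and 7.77% in C. zofingiensis against 5.93%, 4.96% and 3.87% in C. sorokiniana, and the groups overlapped. Divided by mapping loci, with snoR71 kept, the mean snoRNA share was 5.25% in C. sorokiniana against 11.1% in C. zofingiensis.

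**Figure D4:**
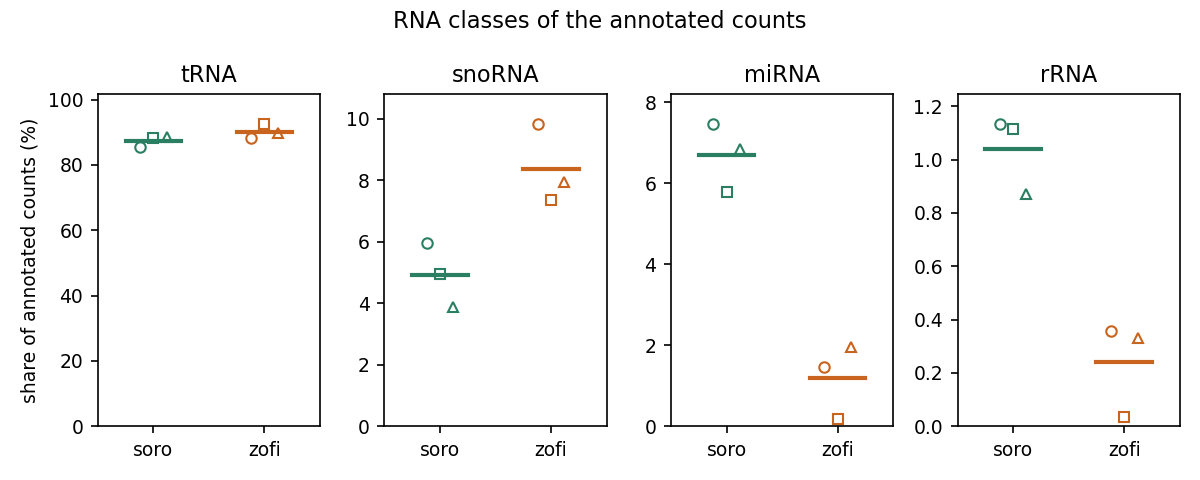
Share of annotated counts (%) by RNA class in C. sorokiniana (soro) and C. zofingiensis (zofi) stress libraries, each panel with its own axis from 0. Circles, squares and triangles are replicates 1, 2 and 3 and bars are means; all C. zofingiensis libraries lie below all C. sorokiniana libraries for miRNA and rRNA.

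Of 223 entries with enough counts for a test, 72 passed edgeR's quasi-likelihood test with Benjamini-Hochberg adjustment (32.3%), 31 with a higher and 41 with a lower share in C. zofingiensis. To be tested an entry needed 10 counts at the size of the median library in at least 3 libraries. That is 9 to 11 counts in a C. sorokiniana library, but 24, 110 and 10 in the libraries of C. zofingiensis. An entry listed in C. zofingiensis alone was therefore tested less readily than one listed in C. sorokiniana alone. With the filter recomputed without replicate 2 of C. zofingiensis, a choice made after the data were seen, 244 of 347 passed (70.3%), 121 higher and 123 lower. With no filter 246 of 850 passed (28.9%), 101 higher and 145 lower. The 6 shares of 112 entries did not overlap between the species (50.2%). The median log2 difference over the tested entries was -0.21, and TMM factors moved that median by 0.26. With TMM factors 148 entries passed, 71 higher and 77 lower (66.4%). Without replicate 2 of C. zofingiensis 143 passed, 71 higher and 72 lower (64.1%). Of the 72 entries called on library totals, 72 were also called with TMM factors and 70 without replicate 2. Entries with the same short reads share counts, so the number of entries overstates the number of distinct differences: with identical counts entered once, 49 of 92 passed, 14 higher and 35 lower, and with TMM factors as well 70, 29 higher and 41 lower.

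tRNA entries were called in both directions, 28 higher and 24 lower in C. zofingiensis of 177 tested (29.4%, beside 32.3% of all entries). With TMM factors 67 were higher and 50 lower, and without replicate 2 of C. zofingiensis 68 and 47, which is 66.1% and 64.97% called, near the shares of all entries under these settings. Entry A, on chromosome 1 (20412928 to 20413000), stands for 8 tRNA entries with identical counts, the commonest in C. sorokiniana. It had 1350, 1680 and 1339 counts there and 362, 662 and 192 in C. zofingiensis. As a share of annotated counts it was 6.45% ± 0.0242 (SD, n = 3) against 0.533% ± 0.272, with no overlap (log2 difference -3.60, SE 0.59, edgeR adjusted p = 2.57e-08). Its commonest sequence had 25 bases in 2 C. sorokiniana libraries and is listed as a tag of family 21. In 2 C. zofingiensis libraries the commonest sequence had 13 bases, and the longest run the sequences share is 9 bases.

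Entry C on chromosome 1 (18387802 to 18387874), D on chromosome 5 (3324702 to 3324774) and E on chromosome 1 (23933137 to 23933209) went the other way. Entry C had 156, 218 and 233 counts in C. sorokiniana against 2070, 21442 and 711 in C. zofingiensis (log2 difference 2.36, SE 0.57, edgeR adjusted p = 1.97e-04). Entry D had 35, 14 and 15 against 2757, 23517 and 626 (log2 difference 5.72, SE 0.67, edgeR adjusted p = 4.79e-15). Entry E had 6, 0 and 2 against 1705, 19237 and 168 (log2 difference 8.10, SE 1.099). In all 3 the shares did not overlap between the species, and replicate 2 of C. zofingiensis had the highest count and the highest share. Entries C and D had the same 13-base commonest sequence in C. zofingiensis, with 1231 reads in replicate 1 and 20671 in replicate 2. With its last base removed it lies inside 1 listed tag, of family 21. Entry E and snoR71 shared another 13-base sequence, with 1446, 17881 and 41 reads, which in the same way lies inside both tags of family 36, listed in C. zofingiensis alone. Those tags held 0.202% and 0.580% of listed reads in replicates 1 and 2 and were not listed in replicate 3. Without replicate 2 of C. zofingiensis the log2 difference was 1.79 for entry C (adjusted p = 7.17e-14), 5.18 for D (5.98e-06) and 7.13 for E. The mean share of entry E in C. zofingiensis was 3.44% with replicate 2 and 1.74% without it. snoR71 had 6, 0 and 2 against 1451, 17914 and 43 (log2 difference 7.90, SE 1.99), and a mean share of 2.98% in C. zofingiensis. Without replicate 2 the log2 difference was 6.70 and the mean share 1.28%. Its call ended without replicate 2 and also without replicate 1 of C. zofingiensis. Entry E and snoR71 passed the filter through the C. zofingiensis libraries alone, so no p-value is given for either.

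Some tRNA entries had higher counts in all 3 C. zofingiensis libraries without a peak in replicate 2, where their shares were the lowest of the 3. The entry on chromosome 1 at 25941164 to 25941235 had 2, 2 and 0 counts in C. sorokiniana against 453, 242 and 225 (log2 difference 6.59, SE 1.58), with a commonest sequence of 19 bases in C. zofingiensis. Its shares there were 0.744%, 0.0863% and 0.901%. The entry on chromosome 2 at 12881591 to 12881661 had 0, 2 and 0 against 315, 268 and 231 (log2 difference 7.41, SE 1.70), with shares of 0.518%, 0.0956% and 0.925% in C. zofingiensis. Both entries passed the filter through the C. zofingiensis libraries alone, so no p-value is given for them. The entry on chromosome 5 at 389893 to 389963 had no count in C. sorokiniana against 213, 116 and 134 in C. zofingiensis, at least 23.04-fold higher against a floor of 3 counts per library. Entry B on chromosome 1 (2025356 to 2025428), among the commonest tRNA entries of C. sorokiniana, had 96, 169 and 118 against 411, 579 and 145. Its shares overlapped (log2 difference -0.20, SE 0.59, edgeR adjusted p = 0.821), and its log2 difference was 0.17 with TMM factors. A tRNA entry lower in C. zofingiensis, on chromosome 1 at 1817400 to 1817471, had 31, 32 and 14 against 0, 2 and 2 (log2 difference -5.88, SE 1.55). Its log2 difference was -5.26 without replicate 2 of C. zofingiensis. It passed the filter through the C. sorokiniana libraries alone, so no p-value is given. Its call ended without replicate 1 of C. sorokiniana.

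Of 29 snoRNA entries tested, 3 were higher and 6 lower in C. zofingiensis (31.03%, near the 32.3% of all entries). With TMM factors these were 4 and 12 (55.2%, beside 66.4% of all entries). With the filter recomputed without replicate 2, 19 of 50 were higher and 16 lower (70.0%, beside 70.3%). Of 28 SNORD, snoZ and snoU entries 8 passed the filter, and 5 were called, all lower (62.5%, beside 32.3%). The filter asks 110 counts in replicate 2 of an entry listed in C. zofingiensis alone, so no direction is read from these 5. Under the recomputed filter 10 passed, of which none was higher and 8 were lower (80.0%, beside 70.3%). With no filter 2 were higher and 7 lower (32.1%, beside 28.9%). SNORD33, a box C/D snoRNA of the kind that guides ribose methylation, had 30, 33 and 25 counts in C. sorokiniana and none in C. zofingiensis, at least 21.7-fold higher. snoR64 had 43, 35 and 10 against none, at least 21.5-fold higher, and snoZ267 had 35, 22 and 17 against none, at least 18.5-fold higher. These 3 entries thus had counts in every C. sorokiniana library. snoR109 went the other way, with 4, 2 and 0 against 373, 274 and 172 (log2 difference 5.68, SE 1.48). It passed the filter through the C. zofingiensis libraries alone, so no p-value is given. Its commonest sequence in C. zofingiensis had 12 bases and, the last base removed, lies inside 1 listed tag of family 21. Among the 8 tested snoR entries 2 were higher and 1 lower (37.5%, beside 32.3% of all entries).

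Of 13 tested U3 and other U RNA entries, 1 was called (7.69%, beside 32.3% of all entries). Without replicate 2 of C. zofingiensis 2 of the same 13 were called, both higher (15.4%, beside 64.1%). Under the recomputed filter, 16 of 27 were higher and none lower (59.3%, beside 70.3%). That filter was chosen after the data were seen and can admit an entry through C. zofingiensis alone, so no direction is read from it. Plant_U3 on chromosome 4 (421983 to 422194), named for the snoRNA U3 of rRNA processing, had no count in C. sorokiniana and 607, 361 and 294 in C. zofingiensis, at least 57.2-fold higher. Its 16-base commonest sequence mapped to 16 loci. U2, the spliceosome RNA that pairs with the branch site of introns, had an entry on chromosome 1 (4842277 to 4842472) with 36, 53 and 32 against 143, 92 and 68 counts. That is 0.176% ± 0.0246 against 0.180% ± 0.129 of annotated counts (SD, n = 3), and the shares overlapped (log2 difference 0.02, SE 1.05, edgeR adjusted p = 0.990).

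Some short sequences counted at snoRNA and miRNA entries also occur inside the most abundant tags, which does not show where those reads came from. The commonest sequence of mir-5652, 10 bases long in all 6 libraries, lies inside 6 listed tags of family 1 once its last base is removed. That of snoZ159, 14 bases long in all 6 libraries, lies inside 14 tags of family 2. snoZ159 had 132, 80 and 46 counts in C. sorokiniana against 51, 37 and 31 in C. zofingiensis (log2 difference -2.41, SE 1.20, edgeR adjusted p = 0.104, and 1.91e-04 with TMM factors). mir-5652 had 61, 59 and 110 against 139, 79 and 77 (log2 difference -0.90, SE 1.19, edgeR adjusted p = 0.584), and its shares overlapped.

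Entries named for miRNAs differed in both directions. Of 128 listed, 12 passed the filter, which asks 110 counts in replicate 2 of an entry listed in C. zofingiensis alone, so no direction is read from them. With the filter recomputed without replicate 2 of C. zofingiensis, 24 passed, of which 7 were higher and 14 lower in C. zofingiensis (87.5% called, beside 70.3% of all entries). With no filter 13 were higher and 29 lower (32.8%, beside 28.9%). The most abundant were entries of miR169, a plant family that represses NF-Y transcription factor subunits. The mature entry miR-169m had 357, 335 and 353 counts in C. sorokiniana and none in C. zofingiensis, at least 260.4-fold higher. Its precursor mir-169m had 371, 344 and 359 against 6, 2 and 0 (log2 difference -8.79, SE 0.86), and differed by -7.84 without replicate 2 of C. zofingiensis. The precursor passed the filter through the C. sorokiniana libraries alone, so no p-value is given for it. The commonest sequence there had 15 bases in all 3 C. sorokiniana libraries, with 195, 170 and 159 reads, and mapped to 20 loci. In the normal cultures mir-169m had 389, 353 and 130 counts in C. sorokiniana against 4, 2 and 0 in C. zofingiensis. Those libraries differed in size, from 2718 to 106200 annotated counts.

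Of the 28 entries on the list of developmental miRNAs, 8 were listed in C. sorokiniana alone, 15 in C. zofingiensis alone and 5 in both. Over all 850 entries these numbers were 137, 276 and 437. Under the filter recomputed without replicate 2 of C. zofingiensis 4 could be tested, and 2 were higher and 2 lower in C. zofingiensis (100%, beside 70.3% of all entries). mir-396a, of the family that represses GROWTH-REGULATING FACTOR genes, had 21, 18 and 13 counts in C. sorokiniana and none in C. zofingiensis, at least 12.9-fold higher. mir-396a passed the filter through the C. sorokiniana libraries alone, so no p-value is given for it. Its 12-base commonest sequence, the last base removed, lies inside 8 listed tags of family 9, which was listed in C. sorokiniana alone. miR-171a, of the family that targets GRAS transcription factors, had no count in C. sorokiniana and 36, 19 and 19 in C. zofingiensis, at least 3.53-fold higher. It fell short of the filter in replicate 2 of C. zofingiensis. It could be tested without that library only through the C. zofingiensis libraries where it was high, so no p-value is given. mir-160c, of the family that targets auxin response factors, had 7, 12 and 7 against 10, 5 and 6, with the same 17-base commonest sequence in all 6 libraries. Shares differ more than these counts, as the libraries differ in size. Summed over its precursors, miR160 held 0.0333%, 0.0460% and 0.0338% of annotated counts in C. sorokiniana. In C. zofingiensis it held 0.0230%, 0.00178% and 0.0320%, with no overlap.

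No entry for miRNAs of phosphate or copper supply passed the filter over 6 libraries. Of 9 phosphate entries, 4 were listed in C. sorokiniana alone, 2 in C. zofingiensis alone and 3 in both (beside 137, 276 and 437 of all 850 entries). miR-399f, of the family that represses the ubiquitin conjugase PHO2, had 15, 15 and 6 counts in C. sorokiniana and none in C. zofingiensis, and miR-399b had 14, 9 and 8 and none. mir-399d had 43, 21 and 16 in C. zofingiensis and none in C. sorokiniana, at least 3.53-fold higher. miR-399f and mir-399d, members of 1 family, were thus listed on opposite sides. Each had counts in 1 species alone and could pass a filter only through it, so no p-value is given. The only copper entry was mir-408, with 22, 13 and 11 in C. zofingiensis and none in C. sorokiniana. The only sulphate entry, mir-395f, had 3 counts in 1 C. sorokiniana library.

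Of the 6 entries for miRNAs that target silencing proteins, 4 were listed in C. zofingiensis alone and 2 in C. sorokiniana alone. Over all 850 entries these numbers were 276 and 137. miR-168b, of the family that represses ARGONAUTE1, had 13, 10 and 20 counts in C. zofingiensis and none in C. sorokiniana, with a commonest sequence of 10 bases. mir-162a, of the family that represses DICER-LIKE1, had 0, 2 and 2 counts in C. sorokiniana, below the floor of 3. mir-472, which targets disease resistance genes in Arabidopsis, had 12, 11 and 6 in C. sorokiniana and none in C. zofingiensis, at least 7.12-fold higher.

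The longest miRNA list was meant for miRNAs known mainly from Arabidopsis and its relatives. It was set by miRNA number alone, so it also took in miR827 of the phosphate list. Of its 63 entries, 24 were listed in both species, 10 in C. sorokiniana alone and 29 in C. zofingiensis alone (beside 437, 137 and 276 of all 850 entries). Under the filter recomputed without replicate 2 of C. zofingiensis 13 were tested, and 4 were higher and 6 lower in C. zofingiensis (76.9%, beside 70.3% of all entries). mir-5645e had 98, 108 and 63 counts against 17, 8 and 4 (log2 difference -4.70, SE 1.31), and differed by -4.05 without replicate 2 of C. zofingiensis. mir-5638b had 40, 87 and 111 against 6, 4 and 7 (log2 difference -4.94, SE 1.29). For both, no C. zofingiensis count reached the lowest C. sorokiniana count. Both passed the filter through the C. sorokiniana libraries alone, so no p-value is given for them. miR-5656 had 132, 80 and 47 against 17, 14 and 21 (log2 difference -3.38, SE 1.24, edgeR adjusted p = 0.0212), with adjusted p of 0.0558 to 0.156 when any C. sorokiniana library or replicate 1 of C. zofingiensis was left out.

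Summed by family over precursors, 10 miRNA families could be tested, and 5 passed edgeR's test (50.0%), all lower in C. zofingiensis, but the filter left out families high in C. zofingiensis alone. One of these, miR5660, named here after its values were seen, had no count in C. sorokiniana and 56, 44 and 33 in C. zofingiensis, at least 5.95-fold higher. With no filter 5 were higher and 10 lower of 69 (21.7%). With the filter recomputed without replicate 2 of C. zofingiensis 4 were higher and 8 lower of 15 (80.0%). miR169 had 377, 354 and 363 counts against 6, 2 and 0 (log2 difference -8.79, SE 1.74). miR396 had 42, 36 and 28 against 2, 0 and 0 (log2 difference -7.23, SE 1.76). Without replicate 2 of C. zofingiensis these log2 differences were -7.91 and -5.89. Both families passed the filter through the C. sorokiniana libraries alone, so no p-value is given for them. miR5638, miR5645 and miR5656 differed by -4.19, -4.003 and -3.38. Each lost its call when some single libraries were left out, with adjusted p up to 0.160, 0.0978 and 0.194. The direction of several families depended on the scaling. TMM factors computed over these families moved their median by 2.85, left miR5645 and miR5656 uncalled, and called miR399, miR5634, miR5642 and miR5652 as higher in C. zofingiensis (70.0% called).

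**Figure D5:**
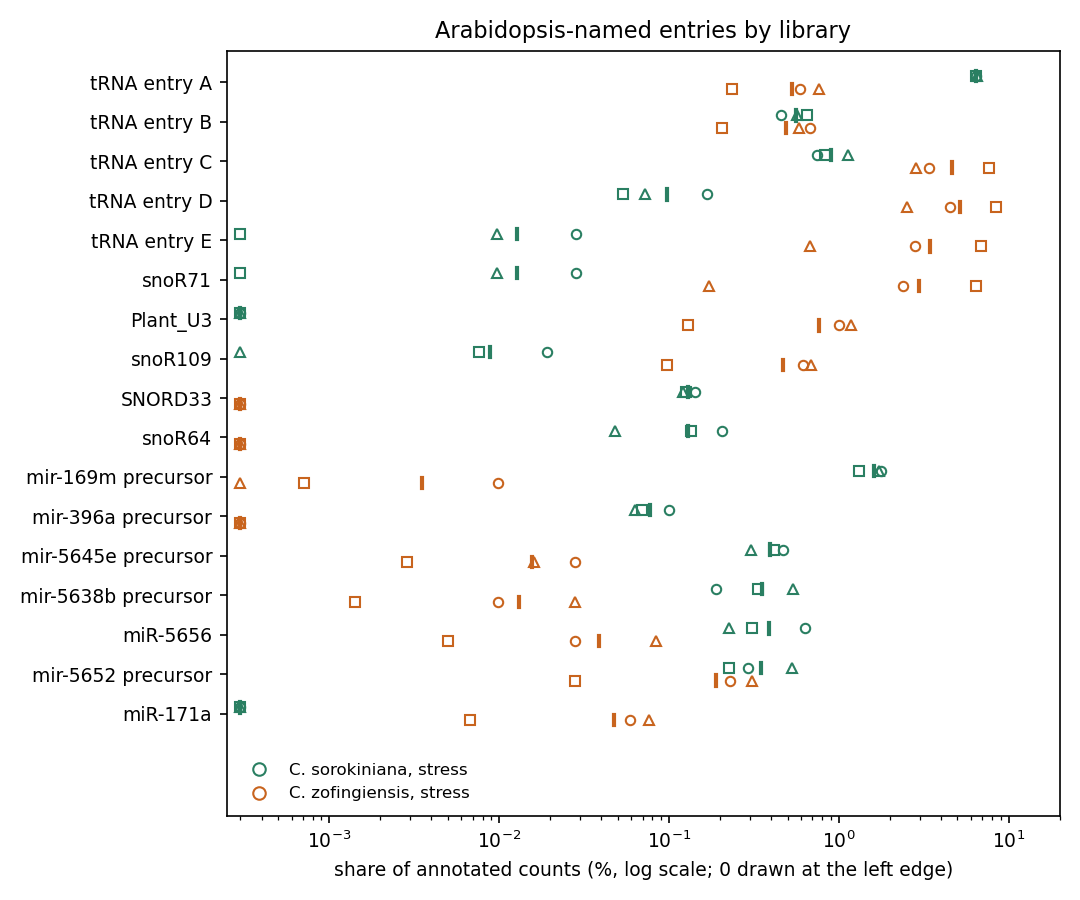
Share of annotated counts (%, log scale) of 17 Arabidopsis-named entries in the 6 stress libraries, with zero counts drawn at the left edge. Circles, squares and triangles are replicates 1, 2 and 3 and bars are means; mir-169m lies at 1.32% to 1.77% in C. sorokiniana and at most 0.00986% in C. zofingiensis, and tRNA entries C, D and E lie higher in C. zofingiensis.

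rRNA entries were few. Of 37 listed, 5 passed the filter, and 2 were lower in C. zofingiensis (40.0%, beside 32.3% of all entries). With TMM factors all 5 were lower, beside 66.4% of all entries called. The filter asks 110 counts in replicate 2 of an entry listed in C. zofingiensis alone, so no direction is read from these 5. With the filter recomputed without replicate 2 of C. zofingiensis 9 of 11 were lower and none was higher (81.8%, beside 70.3% of all entries). With no filter 1 was higher and 6 lower of 37 (18.9%, beside 28.9%). The 5S rRNA entry on chromosome 1 (16432955 to 16433072) had 25, 48 and 23 counts in C. sorokiniana against 20, 13 and 8 in C. zofingiensis (log2 difference -2.63, SE 1.07). It passed the filter through the C. sorokiniana libraries alone, so no p-value is given. Its call ended when replicate 1 or 3 of C. zofingiensis or any library of C. sorokiniana was left out.

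An interaction term over the 12 libraries asked whether the species difference itself changed between stress and normal culture. Of the 33 common tags, 2 passed edgeR's test of the interaction with Benjamini-Hochberg adjustment (6.06%). Tag 4 differed by -0.92 under stress and -2.00 in normal culture, an interaction of 1.08 (SE 0.21, adjusted p = 0.0215). Tag 8 differed by -0.26 under stress and -0.77 in normal culture (interaction 0.50, SE 0.12, adjusted p = 0.0280). Neither was called with TMM factors, which called 8 other tags, 1 with a more positive difference under stress and 7 with a more negative one, and none was called without replicate 2 of C. zofingiensis under stress or in normal culture. Tags 1, 5 and 6 did not pass the test, at interactions of 0.24, -0.58 and 0.39 (edgeR adjusted p = 0.547, 0.118 and 0.217). Tag 5 was among the tags called with TMM factors (adjusted p = 0.00210).

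Of 223 entries, 35 passed the interaction test (15.7%), 20 of them with a more positive difference between C. zofingiensis and C. sorokiniana under stress. With TMM factors 40 passed, 32 of them more positive, and TMM factors moved the median interaction by 0.81. Entry A differed by -3.60 under stress and -1.36 in normal culture (interaction -2.24, edgeR adjusted p = 0.00304). Its normal-culture counts were 696, 525 and 154 in C. sorokiniana against 146, 2248 and 978 in C. zofingiensis. Annotated counts of the normal libraries summed to 19408, 14414 and 2718 in C. sorokiniana against 14601, 106200 and 51706 in C. zofingiensis. Raw counts are therefore not comparable between them, while the log2 differences are of shares. Without replicate 3 of C. sorokiniana in normal culture, the library of 2718 counts, 34 entries passed. Entry C differed by 2.36 under stress and 0.05 in normal culture (interaction 2.31, edgeR adjusted p = 0.00812), with 192, 328 and 44 against 86, 3037 and 825 counts in normal culture. With TMM factors the adjusted p of these interactions was 0.405 for entry A and 0.138 for C. Over single libraries left out it reached 0.0383 for entry A and 0.113 for C. Plant_U3 had no count in the normal C. sorokiniana libraries and 0, 4 and 2 in those of C. zofingiensis, beside 607, 361 and 294 under stress. As its counts were 0 in all 6 C. sorokiniana libraries, no fold is given for the interaction.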

How the data were processed

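Per the labels' protocols, the 12 small RNA libraries were prepared from TRIzol extracts with a NEBNext Multiplex kit. The deposited tag tables hold whole-number counts of the 100 commonest tags per library, per the file headers. The deposited annotation sheets hold counts per Arabidopsis entry and a signal, the counts divided by mapping loci, per the file headers. DESeq and the build TAIR9 are named in the submitters' processing notes, with no aligner or trimming settings, and coordinates are those in the entry names.

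Tags were joined by sequence and entries by name; an unlisted tag or entry was set to 0. The 6 stress libraries were compared in edgeR 4.0.16 (quasi-likelihood test, two-sided; R 4.3.3) on library totals without a composition factor, with filterByExpr for entries, and Benjamini-Hochberg adjustment over all features tested; an adjusted p below 0.05 was called. Class and tag measures had exact two-sided permutation tests (scipy 1.17.1). TMM factors, DESeq2 1.42.0, no filter, a replicate block, left-out libraries and, chosen after the data were seen, a filter recomputed without replicate 2 of C. zofingiensis were alternatives. The code was tested on simulated data. Replicate numbers did not pair the libraries. Replicate pairs differed by 2.18 to 278 in chi-square per degree of freedom, so none was 1 library deposited again. Named features are the 10 commonest per species, the 10 most different in each direction and up to 4 per list of RNA names; species-only tags, tag families, the interaction's comparison values and Plant_U3's normal counts were chosen after their values were seen. The members and lists were chosen with earlier results of these data known. Tags and reads are described by length and overlap, without their letters.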

Additional observations from a re-analysis of the deposited data

Results flagged for a closer look

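Results were set apart here when the species difference under stress differed from that in normal culture by the edgeR interaction test over 12 libraries, with Benjamini-Hochberg adjustment. Among the tags these were tag_4 (interaction 1.08 on the log2 scale, adjusted p = 0.0215) and tag_8 (0.50, adjusted p = 0.0280). Of 223 entries 35 passed, and those given here are only ones among the named features. Among the tRNA entries, ath-tRNA-chr1-20412928-20413000, which is entry A, had -2.24 and ath-tRNA-chr1-9158183-9158255 had -2.24, from nearly the same counts. ath-tRNA-chr1-18387802-18387874, which is entry C, had 2.31 and ath-tRNA-chr5-26195459-26195531 had 2.32, again from nearly the same counts. Entry C and ath-tRNA-chr5-26195459-26195531 were not called in every fit with a single library left out (edgeR adjusted p up to 0.113). The entry ath-rRNA-5S_rRNA-chr5-12024975-12025093 had a fitted interaction of -8.96 (adjusted p = 0.0126). Its counts in normal culture were 0, 0 and 0 in C. sorokiniana against 9, 9 and 3 in C. zofingiensis, and under stress 23, 40 and 25 against 16, 8 and 12. That fitted value depends on the prior count, because a group is at 0.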

How the results depend on the processing

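Called entries numbered 72 of 223, 143 without library 2 of C. zofingiensis and 244 of 347 when the filter was recomputed as well (chosen after the data were seen), 246 of 850 with no filter, 148 with TMM factors, 144 with DESeq2, 27 of 31 for counts divided by loci, and 53 to 143 over single libraries left out with the same entries tested. Called tags went from 14 of 33 to 131 of 207 when all tags of either species were fitted, and called miRNA families from 5 of 10 to 15 of 69 with no filter (5 higher and 10 lower), 12 of 15 with the filter recomputed without library 2 of C. zofingiensis, and 2 to 6 over single libraries left out with the same families tested. Tags with an interaction went from 2 to 8 with TMM factors, and 0 to 6 over single libraries left out; entries with one ranged from 27 to 58. A replicate block gave 6 called families in place of 4, 13 called tags, 59 called entries and 1 tag with an interaction. Same-numbered libraries did not deviate together (correlations -0.247 to 0.221 over 22 tags, -0.343 to 0.177 over 223 entries). Common tags numbered 55 of C. sorokiniana and 60 of C. zofingiensis when sharing 12 bases sufficed, and common entries 210 when listing in all 3 libraries of each species was required. Counted by tags rather than reads, the differences between C. zofingiensis and C. sorokiniana reversed to 3.67 points for 16 to 18 bases, -1.33 for 19 to 21, -2.33 for 22 to 26, -0.34 bases for mean length and 0.333 points for first base T. The snoRNA share reversed to -0.72 points when entries were counted. Over single libraries left out, the 22 to 26 base share differed by -0.147 to 2.77 points and the share of tags listed in both species by -2.51 to 2.06. Entry B (ath-tRNA-chr1-2025356-2025428) reversed to 0.35 with DESeq2, 0.17 with TMM, 1.00 with identical counts once and TMM, and 0.17 without library 2 of C. zofingiensis, against -0.51 without library 1. U2 (ath-snoRNA-U2-chr1-4842277-4842472) reversed to -0.24 with identical counts once, -0.36 with a replicate block and -0.07, -0.23 and -0.41 without C. sorokiniana 3, C. zofingiensis 1 and C. zofingiensis 3. miRNA families reversed with DESeq2 and TMM: miR399 to 1.28 and 1.80, miR5634 to 0.59 and 1.16, miR5642 to 0.51 and 0.96, miR5652 to 1.31 and 1.84. The cause of these changes was not tested. The tag lists hold no count below a library's 100th tag, which limits every statement on unlisted tags.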
